A study of Mus musculus with 14 samples.

Results

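Unnamed loci that share a coordinate range with a named gene were examined in E12.5 mouse heads that differed in their copies of Zcchc8. A locus is the unit in which the authors reported expression, and it counts as unnamed when its gene field holds a dash. Members were chosen by their level and position: an FPKM (fragments per kilobase and per total fragments) of at least 0.1 in at least 3 of the 14 libraries, and a range that overlaps at least 1 named locus. Of 67811 loci, 14314 had no name, 4623 of these reached the level, and 442 met both conditions. The libraries comprised 5 of Zcchc8+/+ (WT), 3 of Zcchc8+/- (HET) and 6 of Zcchc8-/- (KO), all from the C57BL/6J strain. How Zcchc8 was altered, and whether in every cell, was left unstated by the labels. Stranded libraries of polyadenylated RNA were made from whole heads with the brain. No label says that each library is a separate embryo, so a p-value may reflect only how these samples varied.

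ZCCHC8 holds together the nuclear exosome targeting (NEXT) complex, in which it joins the RNA-binding protein RBM7 to the helicase MTR4. The complex hands short-lived nuclear RNAs to the RNA exosome, which degrades them from the 3′ end. Known substrates include promoter upstream transcripts, which run away from a gene on the opposite strand, as well as enhancer RNAs and RNAs with extended 3′ ends.

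The range given for a member was not its own extent. All 442 members carried exactly the same range as every named locus they met, and the 46748 distinct ranges in the tables did not overlap each other, so each range is a merged block that several loci share. The 442 members lay in 363 such ranges with a median length of 106179 bases (2111 to 959425). A range held a median of 2 named loci, 99 members shared theirs with only 1, and the largest number was 38. In 50 ranges there was more than 1 member, and these ranges held 129 members. Where a member starts and ends within its range is therefore not known, and whether it is intronic could not be read.

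Strand could be read from the order of the locus numbers. On each chromosome the numbers form 3 ascending runs, and in the first and second runs 22301 of 22554 names used by only 1 locus (98.9%) lay on the plus and minus strand of the GENCODE M21 annotation, respectively. Of names used by several loci in these runs, 2194 of 4178 (52.5%) did so, and the strand class of members in ranges with such names is less certain. In the third run, 8301 of 8354 loci (99.4%) had no name, and their strand is called unresolved. By this reading, which was chosen after the data had been seen, 168 members were on the plus strand, 164 on the minus strand and 110 unresolved. Each member was paired with the most abundant named locus of its range, its partner. Of the 442 members, 221 lay on the strand opposite to the partner, 111 on the same strand and 110 were unresolved. Of 308 members whose partner could be matched to the annotation, 292 had a protein-coding partner. The strand setting of the authors' counting, not given in the sources used here, decides whether antisense reads were kept apart, so reads of a gene and of its antisense partner cannot be told apart for certain.

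The ends of the shared ranges gave a view of position that the files allow. In 43 ranges a single annotated named locus shared its range with a single member on the opposite strand and with nothing else. Some of these loci carry several gene names, and the ends were then measured from the longest annotated gene. Bases past an end can there belong to another gene of the same locus. Of these, 37 ranges (86%) ran at least 100 bases past the annotated 5′ end of the named gene, by a median of 4176 bases (525 to 18933), and 11 (25.6%) ran at least 100 bases past its 3′ end. Among the 4362 ranges that held a single named locus and no other, 469 (10.8%) passed the 5′ end and 306 (7.02%) the 3′ end. A range merged from a pair of loci can only be as long as, or longer than, that of its named locus, so an excess over lone genes is built in and the uneven split between both ends is what the counts add. The range shared with Amot, which encodes angiomotin, began 668 bases before the Amot start, and that of Cnot8, a subunit of the CCR4-NOT deadenylase, began 4176 bases before the Cnot8 start.

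**Figure D1:**
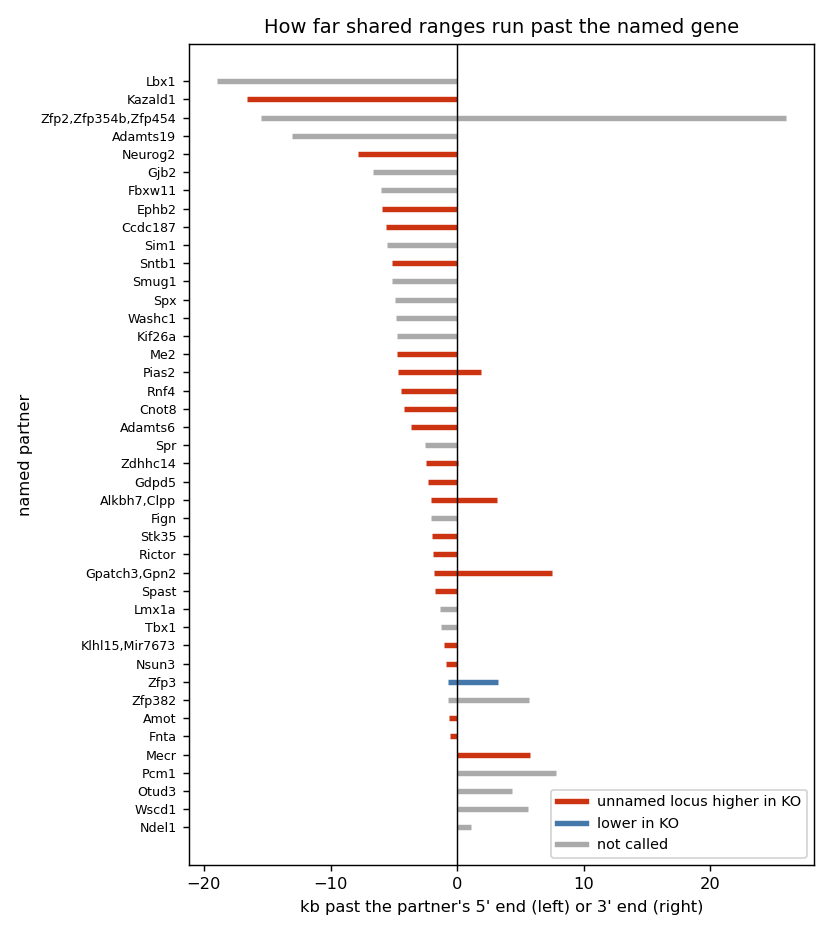
Bars show how far in kb the range ran past the annotated 5′ end (left of 0) or 3′ end (right of 0) of the named gene. Drawn are 42 of the 43 ranges with a single named locus and a single unnamed locus on the opposite strand. Where a locus has several gene names, its longest annotated gene was used. Colour gives the call of the unnamed locus in KO against WT. Most bars point to the left; the Fgf12 range, which passed neither end, is not drawn.

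The DNA before the gene start is shown for 4 genes because a range shared with an unnamed locus ends in it or runs through it. Cnot8, Rictor and Stk35 are partners, and Srsf4 is the gene next to the Mecr range. Other ranges also run through such a stretch, so these are examples. RefSeq sequence of the build GRCm38.p6 was used, on the plus strand and 5′ to 3′, from up to 250 bases before the start up to the last base before the annotated gene, with each CG dinucleotide in capitals. The stretches are chr4:131873387-131873616 for Srsf4, chr11:58103979-58104152 for Cnot8, chr15:6708131-6708378 for Rictor and chr2:129800267-129800516 for Stk35.
Srsf4: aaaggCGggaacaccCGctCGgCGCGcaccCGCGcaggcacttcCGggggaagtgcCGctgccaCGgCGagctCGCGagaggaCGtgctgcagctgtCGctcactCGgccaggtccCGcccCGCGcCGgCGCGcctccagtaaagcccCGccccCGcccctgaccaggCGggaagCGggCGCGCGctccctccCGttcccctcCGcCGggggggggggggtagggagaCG
Cnot8: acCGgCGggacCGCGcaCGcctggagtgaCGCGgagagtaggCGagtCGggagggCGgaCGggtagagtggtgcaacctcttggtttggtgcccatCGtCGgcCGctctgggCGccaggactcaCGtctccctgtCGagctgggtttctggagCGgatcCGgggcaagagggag
Rictor: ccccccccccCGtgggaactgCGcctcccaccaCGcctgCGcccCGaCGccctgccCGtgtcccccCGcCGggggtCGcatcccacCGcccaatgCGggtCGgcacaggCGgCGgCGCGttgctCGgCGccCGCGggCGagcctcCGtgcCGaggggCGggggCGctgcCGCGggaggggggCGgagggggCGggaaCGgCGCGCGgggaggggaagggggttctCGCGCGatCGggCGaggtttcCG
Stk35: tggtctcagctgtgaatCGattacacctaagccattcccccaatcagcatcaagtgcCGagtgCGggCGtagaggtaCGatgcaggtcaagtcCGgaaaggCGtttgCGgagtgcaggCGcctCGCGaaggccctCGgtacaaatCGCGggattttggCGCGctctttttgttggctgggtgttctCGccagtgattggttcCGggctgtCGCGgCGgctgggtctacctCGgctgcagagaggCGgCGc
They hold 33, 19, 40 and 24 CG dinucleotides in 230, 174, 248 and 250 bases. Their ratios of observed to expected CG are 0.96, 0.98, 0.98 and 1.06, all above the median of the partners given next. Single partner windows ranged from 0.121 for Ccdc187 to 1.12 for Fign. Over the 28 of 43 partners that could be matched to a RefSeq window, the 250 bases before the start had a median GC content of 60.4% and a median ratio of observed to expected CG of 0.721, and the ratio was at least 0.6 in 75%. Over all 32851 RefSeq windows of the same length the values were 52.4%, 0.373 and 34%. The letters AATAAA, the core polyadenylation signal, were present on the antisense strand of 7.14% of the partner windows and 9.49% of all windows, and GGTAAG, a 5′ splice site sequence, on the antisense strand of 7.14% and 3.72%. On the sense strand AATAAA was in 0% of the partner windows and 10.4% of all windows, and GGTAAG in 3.57% and 4.26%. With 28 partner windows each share rests on few windows, and the differences were not tested. The set of all windows was not limited to genes at the level. Both motifs were searched on each strand and cannot overlap. These are matches of letters, and the sequence of the members themselves was not read.

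The checks on the libraries were as follows. The Zcchc8 locus was at 39.7 ± 2.32 FPKM (SD, n = 5) in WT. It was at 25.7 ± 1.64 (SD, n = 3) in HET heads and at 15.5 ± 3.91 (SD, n = 6) in KO heads, with a log2 difference of -1.39 (SE 0.148, limma-trend adjusted p = 2.48e-06) in KO. For HET heads this difference came to -0.62 (SE 0.179), not called by limma-trend (adjusted p = 1). The exact two-sided permutation test gave p = 0.00433 for KO and p = 0.0357 for HET, the smallest values that it allows at these group sizes. Relative depth, read from the steps between low FPKM values with WT1 at 1.0, had a median of 1.15 in WT, against 1.30 in HET and 1.31 in KO, and total depth is unknown. Markers of several head tissues were lower in KO: 11 of 11 lens loci passed the test (summed FPKM 138 to 193 in WT and 38.5 to 183 in KO), 6 of 8 of surface epithelium (98.1 to 137 and 69.5 to 89.9), 5 of 15 of skeletal muscle (204 to 385 and 59.2 to 279), 4 of 5 of choroid plexus (167 to 216 and 130 to 169) and 3 of 8 of cartilage (240 to 347 and 170 to 305). Higher were 1 of 6 neural progenitor loci and 1 of 5 erythroid loci, summed neuron markers were at 606 to 693 in WT and 539 to 656 in KO, and no marker was at 0 in every library. The part of depth and of tissue makeup in the results was not tested. In whole heads, fewer cells of a type and less RNA per cell cannot be told apart.

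As a set, the members were scarcer in WT and HET than in KO. The median over members of the mean FPKM was 0.0798 in WT, 0.0750 in HET and 0.389 in KO. In each WT library 170 to 188 of the 442 members reached 0.1 FPKM, in each HET library 164 to 179, and in each KO library 308 to 369. The summed FPKM of all members was 118 to 147 in WT (median 132), 122 to 142 in HET (135) and 269 to 406 in KO (350). The KO range lay wholly above the WT and HET ranges, which overlapped each other. Over the 157 members at the level in 3 WT libraries alone, the sum was 106 to 126 in WT, 106 to 125 in HET and 170 to 240 in KO, again without overlap of KO with the others. Means of at least 1 FPKM were reached by 37 members in WT, 36 in HET and 96 in KO.

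The rule that chose the members bears on these numbers. It asked for 3 of 14 libraries, and 225 members reached the level in 3 KO libraries but not in 3 WT libraries, so the rule itself favoured a higher KO level in them and their difference is a description. Another 147 reached it in both groups and 10 in WT but not in KO, 1 only in HET, and 59 in no group by itself. The threshold itself was close for some: the third-highest FPKM was 0.101 for the member of the RP23-18O23.1 range and 0.102 for that of Spr, just inside, and 0.0989 for an unnamed locus of the Eif3m range and 0.0969 for one of the Slc4a7 range, just outside. In all, 51 members had exactly 3 libraries at the level, and 84 unnamed loci in shared ranges had 2.

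Between KO and WT, 212 of 442 members were called higher (48.0%) and 2 lower (0.452%), by limma-trend on log2(FPKM + 0.1) with Benjamini-Hochberg adjustment over all 25824 loci at the level. Of all those loci 19.9% were higher and 4.19% lower, of named loci 14% and 5.0%, and of the 4181 other unnamed loci 47.0% and 0.526%. The share among members was thus near that of unnamed loci that share no range with a gene, and well above that of named loci. The median log2 difference was 1.04 over members and 0.03 over all loci tested, on a scale that understates the change of low loci. In 164 members (37.1%) every KO library lay above every WT library, as in 14.8% of all loci, 10.1% of named loci and 36.4% of other unnamed loci. In 1 member (0.226%) every KO library lay below, as in 1.49%, 1.81% and 0.0239%. Among the 157 members at the level in 3 WT libraries, 60 were higher, 2 lower and 95 not called, and the median log2 difference was 0.44, with a median of the means of 0.340 FPKM in WT and 0.796 in KO. Scaling changed the balance: the split was 178 higher and 34 lower with a common median of all loci, and 158 and 46 after quantile normalization. Over all 25824 loci it was 3764 higher and 14282 lower with the common median, and 3513 and 6083 after quantile normalization.

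Between HET and WT no member was called. By the same limma-trend test, 0 of 442 members passed in either direction, with 15 at an unadjusted p under 0.05, of which 9 were higher and 6 lower. Of all loci, 0.00774% were called higher and 0.0% lower. In 365 members the HET mean lay inside the range of the WT libraries, and so it did in 176 of the 212 members that were higher in KO. Between KO and HET, which uses the same KO libraries, 199 members (45.0%) were higher and 2 (0.452%) lower, against 18% and 3.19% of all loci. In 158 of the 212, every KO library lay above every WT and every HET library.

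Calls were then counted in the 3 strand classes. Beside them stand the higher shares of 19.9% of all loci and 47.0% of other unnamed loci, and the lower shares of 4.19% and 0.526%. On the opposite strand 125 of 221 members (56.6%) were higher and 2 lower, with a median log2 difference of 1.24. Opposite refers to the partner only. Of the 221, 165 lay in ranges with more than 2 loci, where another named locus can be on the member's own strand, as Nelfa in the Nsd2 range. Of these, 95 (57.6%) were higher and 1 lower. Of the 56 in ranges of 2 loci, 30 (53.6%) were higher and 1 lower. Same-strand members numbered 37 higher (33.3%) and 0 lower of 111, with a median of 0.72. Unresolved members numbered 50 higher (45.5%) and 0 lower of 110, with a median of 1.09. Members at the level in 3 WT libraries did not need KO libraries to enter. Among them, 45 of 85 on the opposite strand were higher (52.9%) and 2 lower. On the same strand 10 of 37 (27.0%) were higher, and 5 of 35 unresolved ones (14.3%), below the 19.9% of all loci. The medians were 0.94, 0.26 and 0.19. The shares of all loci were not split by level in WT. The difference between these classes was not tested. With a common median the opposite-strand, same-strand and unresolved classes had 110, 29 and 39 higher calls and 9, 13 and 12 lower ones. After quantile normalization they had 98, 23 and 37 higher and 17, 17 and 12 lower, and the same-strand median was -0.06, so its direction depended on the scaling. Over all 25824 loci the calls were 3764 higher and 14282 lower with the common median, and 3513 and 6083 after quantile normalization.

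**Figure D2:**
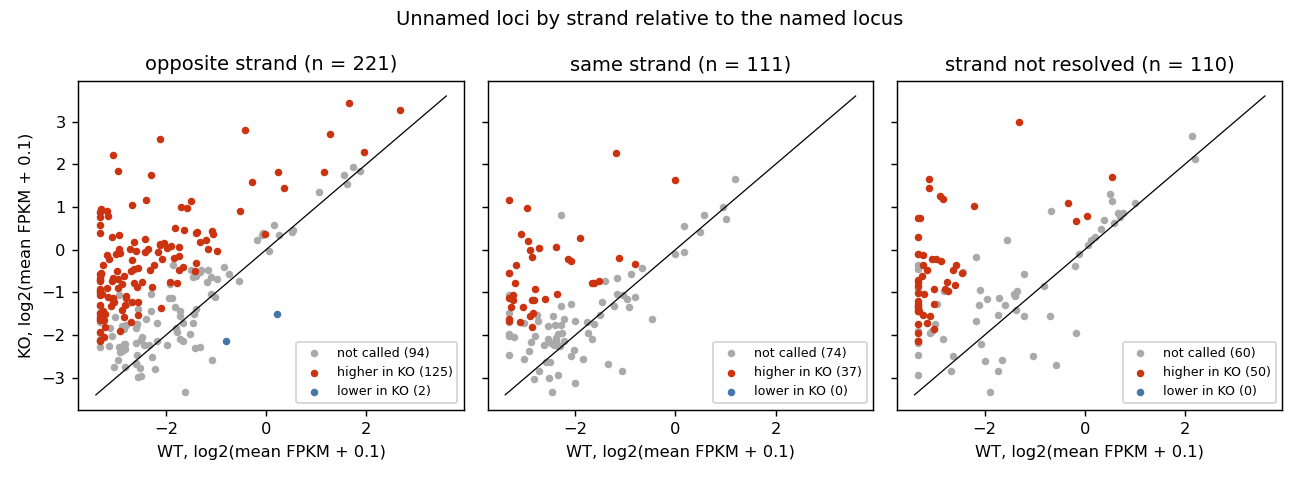
Each point is 1 unnamed locus, with log2(mean FPKM + 0.1) in WT on the horizontal axis and in KO on the vertical axis, in 3 panels by strand relative to the partner. Points above the diagonal line are higher in KO; red points were called higher (125, 37 and 50) and blue points lower (2, 0 and 0).

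The member with the largest difference shared its range with Mecr, which encodes a mitochondrial enoyl reductase of fatty acid synthesis (XLOC_042522, minus strand, chr4:131843470-131873526 of mm10). Its FPKM in the WT libraries was 0.0568, 0, 0, 0.0305 and 0.0157, and in the HET libraries 0.0233, 0.00915 and 0. In the KO libraries it was 2.52, 3.7, 4.99, 4.47, 7.09 and 4.59. Every KO library lay far above every WT and HET library, and the log2 difference from WT was 5.23 (SE 0.22). Mecr itself was at 13.3 ± 1.18 FPKM (SD, n = 5) in WT and 13.4 ± 0.730 (SD, n = 6) in KO. The range passed the 3′ end of Mecr by 5740 bases and stopped 91 bases short of the annotated start of Srsf4, a splicing factor gene on the plus strand, whose upstream bases are among those printed. Of the 5 ranges that passed only the 3′ end of the named gene, this was the one whose member was called.

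Several other members were near or at 0 in WT and above 1 FPKM in each KO library. The plus-strand member of the Amot range (XLOC_064373) was listed at 0 in 4 WT libraries and at 0.142 in WT5, at 0.404, 0.0619 and 0.0553 in HET, and between 2.78 and 5.05 (median 3.00) in KO. The member of the Nsd2 range (XLOC_045655), which also holds Nelfa, was listed at 0 in each of 5 WT libraries and in 2 HET libraries, and was at 0.178 in the other HET library and at 1.01 to 2.49 in KO. Nsd2 encodes a histone H3 lysine methyltransferase and Nelfa a subunit of the pausing factor NELF. Neither partner was called: Amot was at 19.8 FPKM in WT and 20.7 in KO (adjusted p = 0.781 by limma-trend), and Nsd2 at 59.2 and 61.8 (adjusted p = 0.518). For these members the level in KO alone met the rule.

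The members of 4 further ranges were also low in WT. Each range is called by its most abundant named locus, and it holds 4 named loci for Chd8 and Supt16, 5 for Tfg, 6 for Anp32e and 2 for Zfp764. All members but that of Anp32e needed KO libraries to meet the rule, and that of Zfp764 was above 0.1 FPKM in WT1 as well. The unresolved member of the range of Chd8, a chromatin remodeller, and Supt16, a subunit of the histone chaperone FACT, was at 0 to 0.0533 FPKM in WT, 0 in HET and 1.93 to 3.82 in KO (XLOC_021055). The unresolved member of the Tfg range, whose gene acts in export from the endoplasmic reticulum, was at 0 to 0.0226 in WT and 2.05 to 3.41 in KO (XLOC_025317). The minus-strand member of the range of Anp32e, an H2A.Z chaperone gene, was at 0 to 0.295 and 1.98 to 4.83 (XLOC_038342). It was above 0.1 FPKM in WT1, WT3, HET3 and HET4 as well. The member of the range of the zinc finger gene Zfp764 was at 0 to 0.116 and 1.73 to 3.25 (XLOC_056569, unresolved). WT and KO did not overlap in these or in the other largest rises, because that was a condition of their choice. In these members, log2 differences lay between 4.17 for Zfp764 and 4.76 for Chd8 and Supt16.

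Of the largest differences, 2 were at the level in WT as well, and there the limma-trend test applies. The unresolved member of the range of Zbtb17 (XLOC_043457), which encodes the transcription factor MIZ1 and whose range also holds the repressor gene Spen, was at 0.494, 0.101, 0.234, 0.395 and 0.291 FPKM in WT. It was at 0.286, 0.766 and 0.249 in HET and at 6.35 to 9.73 (median 7.79) in KO. No KO library came near the other groups, and the log2 difference was 4.38 (SE 0.272, adjusted p = 5.96e-09). The plus-strand member of the RP23-353J21.5 range (XLOC_009034) rose from 0.131 ± 0.0714 (SD, n = 5) to 5.90 ± 0.777 (SD, n = 6), by 4.76 (SE 0.241, limma-trend adjusted p = 7.37e-10). Its partner, a locus named only by its clone, rose too, from 0.194 to 0.842 FPKM. The member of the range of another such locus, RP23-381K3.5 (XLOC_039795), was at 0 in 4 WT libraries and 0.0116 in WT5 and at 1.49 to 2.20 in KO, and its partner rose from 0.360 to 2.43.

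**Figure D3:**
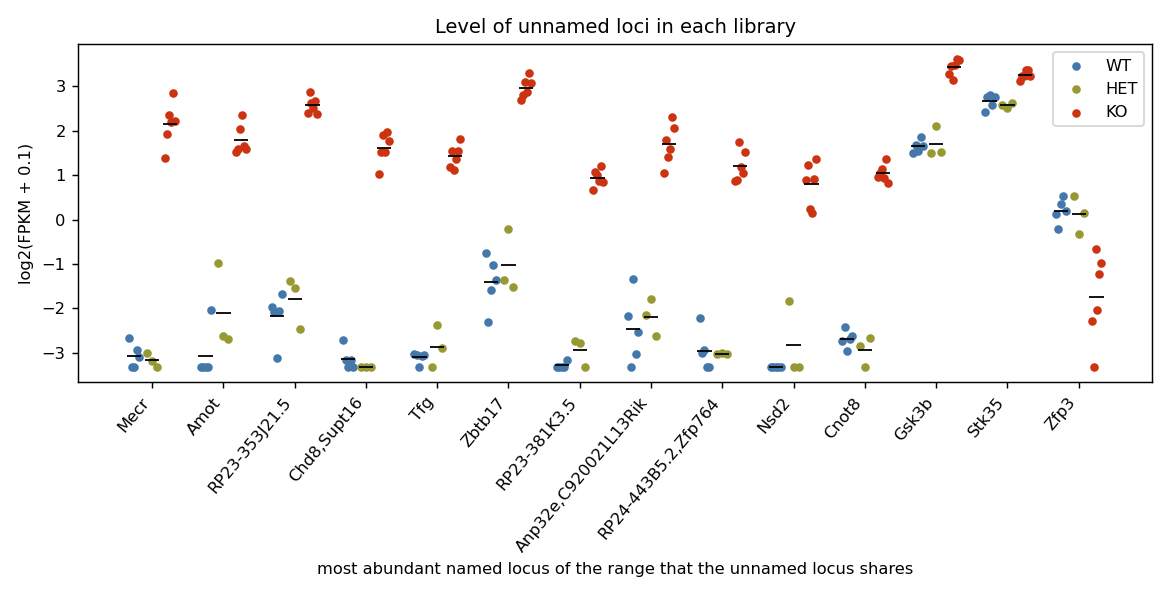
Points show log2(FPKM + 0.1) of 14 unnamed loci in each of the 5 WT, 3 HET and 6 KO libraries, labelled by the most abundant named locus of the range, with a line at each group mean. In the first 13 the KO points lie above all WT points; in the Zfp3 range they lie below.

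Abundant members on the strand opposite to their partner rose by smaller factors. The minus-strand member of the range of Stk35, a protein kinase gene, had the highest mean level of all members (XLOC_034534). Its FPKM was 5.25, 6.66, 6.94, 5.87 and 6.70 in WT, 5.85, 5.64 and 6.06 in HET, and 8.57 to 10.3 (median 9.39) in KO. KO lay above both other groups, which overlapped, and the log2 difference was 0.60 (SE 0.0750, limma-trend adjusted p = 1.46e-05). With a common median of all loci it was 0.12 (adjusted p = 0.201), so the call depended on the scaling. Stk35 was at 10.8 FPKM in WT and 11.4 in KO. The range began 2014 bases before the start of Stk35, whose upstream bases are printed above.

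The minus-strand member of the range of Gsk3b, a kinase gene of the Wnt pathway (XLOC_024819), differed more. It was at 2.71, 3.08, 2.83, 3.53 and 3.07 FPKM in WT, at 2.74, 4.19 and 2.75 in HET, and at 8.76 to 12.1 (median 11.01) in KO. All KO libraries were above the other groups, and the log2 difference was 1.78 (SE 0.119, limma-trend adjusted p = 1.33e-08). Gsk3b was at 46.2 ± 4.49 (SD, n = 5) and 49.6 ± 6.36 (SD, n = 6) FPKM. The plus-strand member of the range of H2-K1 and H2-K2, class I histocompatibility genes with near-identical copies, was at 3.81 in WT and 4.79 in KO (log2 difference 0.32, adjusted p = 0.00174), and at -0.16 (adjusted p = 0.138) with a common median. Near-identical copies can trade reads, so these values are uncertain.

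The calls of the other abundant members were less clear. The unresolved member of the range of Nkx6-1, a homeobox gene of ventral neural progenitors, was at 3.21 to 5.14 FPKM in WT and 3.84 to 8.37 in KO (log2 difference 0.50, limma-trend adjusted p = 0.0877). It was called without KO2 (log2 difference 0.63, adjusted p = 0.0197), with the replicate number as a block (0.55, adjusted p = 0.0439) and in the authors' matrix (0.95, adjusted p = 0.00104). That of Fbxo11, an F-box ubiquitin ligase gene, was at 1.41 to 7.69 in WT and 1.99 to 6.98 in KO and was not called, and its WT libraries spanned the range of the KO libraries.

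The member of the Cnot8 range was low in all WT and HET libraries and varied little among KO libraries. The minus-strand member (XLOC_010078) was at 0.0507, 0.0858, 0.0271, 0.0539 and 0.0630 FPKM in WT, at 0.0385, 0 and 0.0573 in HET, and at 1.66 to 2.46 (median 1.90) in KO. The groups were far apart, with a log2 difference of 3.73 (SE 0.159), while Cnot8 was at 42.4 ± 1.29 (SD, n = 5) and 40.6 ± 1.32 (SD, n = 6). A further 3 ranges of this simple layout, chosen after their values had been seen, held members listed at 0 in all 8 WT and HET libraries. That of Fnta, the alpha subunit of farnesyltransferase, was at 0.786 to 2.95 FPKM in KO, that of Rictor, a subunit of mTORC2, at 0.103 to 0.986, and that of Klhl15, an adaptor gene of a ubiquitin ligase, at 0.166 to 0.708. Their ranges passed the 5′ end of the named gene by 525, 1888 and 1033 bases.

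By position of the range ends, calls were spread as follows. Of the 31 members in ranges that passed only the 5′ end of the named gene, 18 (58.1%) were higher and 0 lower, against 48.0% and 0.452% of all members. All 31 were opposite-strand members in ranges of 2 loci. Their share was near the 56.6% higher among all opposite-strand members and the 53.6% among the 56 in ranges of 2 loci. Of 6 that passed both ends 3 were higher and 1 lower, and of 5 that passed only the 3′ end 1 was higher. Some of the 6 are at loci with several gene names, such as that of Gpatch3 and Gpn2. The ranges of the developmental regulators Sim1, Lbx1 and Lmx1a were among the first kind without a call: their members were at 0.205 FPKM in WT and 0.133 in KO, at 1.103 and 1.161, and at 2.85 and 3.29. These examples were chosen after their values had been seen. The Tbx1 member, in the range of a T-box gene of the pharyngeal arches, was at 0.0410 to 0.241 in WT and 0.0418 to 0.6004 in KO (log2 difference 0.71, limma-trend adjusted p = 0.187), and without KO2, at 0.0418 FPKM, the adjusted p was 0.0109.

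The Zfp3 range held the member with the largest fall in KO. This minus-strand member, in the range of a zinc finger gene (XLOC_010333, chr11:70763477-70776133), was at 0.981, 0.762, 1.17, 1.34 and 1.04 FPKM in WT and at 1.34, 0.693 and 1.01 in HET. In KO it was at 0.104, 0.000312, 0.527, 0.145, 0.324 and 0.410. All KO libraries lay below all WT and HET libraries, and the log2 difference was -1.95 (SE 0.386, limma-trend adjusted p = 0.00127). In the authors' matrix the log2 difference was -4.38 and the adjusted p 0.111. Zfp3 itself was at 3.41 FPKM in WT and 3.10 in KO (adjusted p = 0.270). The range passed the 5′ end of Zfp3 by 732 bases and its 3′ end by 3205. The second lower call, named after its values had been seen, was the minus-strand member of the RP23-424I1.1 range (XLOC_006213), at 0.151 to 0.873 in WT and 0.0411 to 0.215 in KO (log2 difference -1.25, adjusted p = 0.0327). Its groups overlapped.

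For members on the strand of their partner, the files do not tell separate transcripts from further exons of the same gene. The largest differences among them, chosen after their values had been seen, were in the ranges of Ppia, Nkain1, Ybx2 and Igfbp6. The member in the range of Nkain1, a gene for a sodium pump interacting protein (XLOC_042508), was at 0.417, 0.200, 0.368, 0.305 and 0.410 FPKM in WT, 0.295, 0.359 and 0.401 in HET and 3.64 to 5.69 (median 4.70) in KO. KO was far above both, with a log2 difference of 3.45 (SE 0.155, limma-trend adjusted p = 2.49e-10), while Nkain1 was at 85.5 and 89.2. The member of the range of Ppia, the cyclophilin A gene, was at 0 to 0.0695 in WT and 0.710 to 2.78 in KO, with Ppia at 1410 and 1404. That range holds many genes. The member of the range of the axon guidance receptor gene Robo1 was at 0 in 4 WT libraries and 0.169 in WT1, and at 0.131 to 0.335 in KO, so the groups overlapped. This member needed KO libraries to meet the rule, and its log2 difference of 1.44 is a description.

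Ranges with transcription factor genes of the head and brain held 15 members, of which 9 (60%) were higher and 0 lower in KO, against 48.0% and 0.452% of all members, with a median log2 difference of 1.1. The minus-strand member of the Neurog2 range, where the proneural factor gene is the sole named locus, was at 0.458, 0.316, 0.583, 0.350 and 0.317 FPKM in WT, 0.350, 0.390 and 0.557 in HET and 0.561 to 1.32 (median 0.876) in KO. The lowest KO library was just below the highest WT library, and the log2 difference was 0.94 (SE 0.202, limma-trend adjusted p = 0.00251), while Neurog2 was at 28.3 and 28.0. The antisense member of the range of Zic2 and Zic5, zinc finger genes of the dorsal neural tube, rose from 0.199 ± 0.0738 (SD, n = 5) to 0.796 ± 0.3004 (SD, n = 6). The plus-strand member of the range of Hdac9 and Twist1, a mesenchymal factor gene, rose from 0.126 ± 0.0269 (SD, n = 5) to 0.753 ± 0.242 (SD, n = 6). The Pax2 range held 2 members, of which 1 was higher (0.0481 in WT and 0.488 in KO). Members of the Foxd3 and Dlx6 ranges were not called, at 1.02 in WT and 1.37 in KO for Foxd3. Lists of exosome factors (29 genes), 3′ end processing (23) and immediate early genes (20) had 0 members each.

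In ranges with several members, calls were often mixed. Of the 50 ranges with more than 1 member, all members were higher in 9, some in 26 and none in 15. The range of RP23-460N4.2, a clone-named locus, held the most, 10, of which 7 were higher: 5 of 6 on the opposite strand, 1 of 3 on the same strand and the unresolved one. Members of 1 range share their surroundings and are not independent of each other.

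The named partners were called about as often as other named loci. Of the 442 partners, counted once for each member, 62 (14%) were higher and 16 (3.62%) lower in KO, with a median log2 difference of 0.01. These shares were near the 14% and 5.0% of tested named loci. Only 419 of the partners were tested, so the shares among tested partners are slightly larger. Of the 212 members called higher, 160 had a partner that was not called, 36 a partner called higher, 7 a partner called lower and 9 a partner below the level. When the log2 difference between member and partner was tested within each library, the member had gained on its partner in 178 of 419 pairs (42.5%) and lost in 13 (3.1%). Of the gains, 130 were in the 266 pairs whose member was not at the level in 3 WT libraries, where the rule favoured a higher KO level. In the 153 pairs whose member was at that level in WT, 48 (31.4%) gained and 4 (2.61%) lost. The Gsk3b pair differed by 1.68 (limma-trend adjusted p = 1.90e-05), whereas the Stk35 pair differed by 0.53 (adjusted p = 0.0548). In 10 of the 13 pairs that lost, the partner was called higher. The extreme case, named after its values had been seen, was a range with many histone genes, where the partner locus of Hist1h4i and neighbours stood at 20.2 FPKM in WT and 460 in KO and the same-strand member XLOC_016498 at 0.107 and 0.161. In the range of Kazald1, an insulin-like growth factor binding family gene, member and partner rose together: the partner from 2.70 to 10.01 FPKM and the antisense member from 0.209 to 1.89 (pair difference 0.82, adjusted p = 0.0725).

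**Figure D4:**
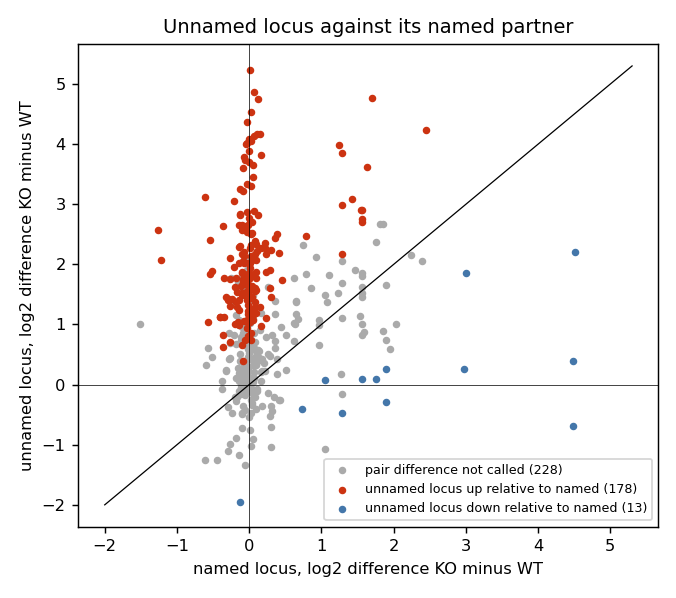
Each point is 1 of 419 pairs, with the log2 difference between KO and WT of the named partner on the horizontal axis and of the unnamed locus on the vertical axis, and a diagonal line where both are equal. Most points lie near 0 on the horizontal axis and above 0 on the vertical axis, where 178 red points mark members that gained on their partner and 13 blue points those that lost.

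The remaining named members gave no call between KO and WT except Me2, Trim36 and RP24-477I13.2. The plus-strand member of the Me2 range, a gene for a mitochondrial malic enzyme, was at 0.110 to 0.273 FPKM in WT, 0.260 to 0.336 in HET and 1.08 to 1.58 in KO (log2 difference 2.33, SE 0.158, limma-trend adjusted p = 1.56e-08). That of the Trim36 range, a ubiquitin ligase gene, was at 0.169 to 0.792 and 0.885 to 1.71, without overlap. The RP24-477I13.2 member was at 0 to 0.0246 in WT and 0.577 to 0.990 in KO. The member of the range of Fgf12, an intracellular relative of the fibroblast growth factors, was at 0.844 and 1.17 (adjusted p = 0.102), that of Gpam, a glycerol-3-phosphate acyltransferase gene, at 0.263 and 0.205 (adjusted p = 0.780) and that of the zinc finger gene Zfp870 at 0.263 and 0.328 (adjusted p = 0.6). The Ccdc129 member was listed at 0 in all KO libraries, at 0, 0.658 and 0.841 in HET and at 0.402 in WT4 alone among WT. Those 3 libraries above 0 are the ones that met the rule, so its lower level in KO than in HET is a description.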

How the data were processed

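RNA was measured in 14 libraries. The authors deposited 1 table per library of FPKM values per locus, and a log2 matrix of the same loci. The submitters' processing notes name TopHat2 2.1.0, Cuffdiff, Partek, FastQC 0.10.0, bcl2fastq and the build mm10, with no role given. The strand setting and gene models were not given in the sources used here. No counts were used, so total depth is unknown.

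Libraries were grouped by the genotype label. Loci with at least 0.1 FPKM in at least 3 libraries (25824) were fitted as log2(FPKM + 0.1) with limma-trend (limma 3.58.1, R 4.3.3, robust) in 1 fit of 14 libraries, with Benjamini-Hochberg adjustment over all of them and a threshold of 0.05. Single values were compared by exact permutation with scipy 1.17.1, on Python 3.11.15, pandas 2.3.3 and numpy 2.4.6, and figures were drawn with matplotlib 3.10.9. The fit was tested on simulated data. The members and lists were chosen with earlier results of these data known. Named members were the 10 largest rises and up to 5 falls by level, the 3 smallest p in each planned position class, the 5 highest levels, the strongest calls of the other comparisons and the strongest of each gene list. A named member that the rule takes is not reported here. The planned position classes do not separate members, because ranges are shared, and the members' own sequence was not read. Promoter sequence is from RefSeq (GRCm38.p6). Alternatives were other pseudocounts, filters, scalings, the authors' matrix, the replicate number as a block, library weights and leaving out each library. The common median over loci at 1 FPKM or more in every library, and a partner on the opposite strand, were added after seeing the data.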

Additional observations from a re-analysis of the deposited data

Results flagged for a closer look

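In 56 groups of 5 or 6 libraries over 29 named members, 9 had a library that stood far from the others. For normally spread values the limit used gives about 1 in 20 groups. Where all WT libraries but 1 were at 0, as in the Amot range, the flag was certain. The count of 9 can therefore not be set against that rate. In the Amot range, WT5 was at 0.142 FPKM and the other WT libraries at 0. In the range of Chd8 and Supt16, WT1 was at 0.0533, with the next WT library at 0.0118. In the Tfg range, WT3 was at 0 and the next WT library at 0.0189. The RP23-381K3.5 member was at 0.0116 in WT5 and 0 in the other WT libraries. In the Zfp764 range, WT1 was at 0.116 and the next at 0.0291. The Robo1 member was at 0.169 in WT1 and at 0 in the others. In the Zfp870 range, KO2 was at 0.649 and the next KO library at 0.326. The RP24-477I13.2 member was at 0.0246 in WT1, with the next WT library at 0.00509. The Ccdc129 member was at 0.402 in WT4 and at 0 in the other WT libraries.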

How the results depend on the processing

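Of the 212 members higher in KO than in WT, 193 stayed called without each library in turn. Under 4 scalings 156 were called, and 81 of them also in the authors' matrix, where 232 members could be tested. Of the 212, 152 were not at the level in 3 WT libraries, where the rule favoured a higher KO level. The members were not chosen anew in these fits, and the counts were not split by level in WT, so they do not test that choice. Over all loci the split of higher and lower calls was 5133 and 1083 as deposited (82.6% higher), 3764 and 14282 with a common median (20.9%, with a median shift of -0.45 log2), 5362 and 783 with the median of abundant loci (87.3%), 3513 and 6083 after quantile normalization (36.6%) and 7158 and 596 in the authors' matrix (92.3%, shift 0.18). Low levels and unknown depth limit every value under about 0.1 FPKM.

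Higher calls in KO against WT numbered 134 of 214 tested (62.6%) at a filter of 0.5 FPKM, 66 of 107 (61.7%) at 1 FPKM and 101 of 232 (43.5%) in the authors' matrix, and 199 to 222 when leaving out 1 library. In that matrix 7158 of all 22003 loci tested were higher as well. The shares of all loci at the 2 filters were not counted. These filters take 3 libraries of any group, so KO libraries alone can still admit a member. Lower calls, 2 as reported, were 1 at either filter, without a filter, or with single gene names only, 34 with a common median, 46 after quantile normalization, 4 in the matrix, and 1 to 3 without 1 library, with 1 without WT1 and 1 without KO1. In KO against HET, higher calls (199) were 132, 66 and 92 for the filters and the matrix, and 165 to 211 without 1 library. Lower calls (2) were 1 at either filter or without one, 28 with a common median, 37 after quantile normalization, 4 with library weights, and 1 to 4 without 1 library (1 without KO4, 4 without KO6). Pairs in which the member gained (178) were 102 and 56 at the filters, 79 in the matrix and 114 of 271 with a partner on the opposite strand, and 166 to 190 without 1 library. Pairs in which it lost (13) were 20 and 23 at pseudocounts of 0.5 and 1, 4 at either filter, 37 after quantile normalization and 11 to 17 without 1 library. The cause was not tested, except that the filters and the matrix test fewer members. The Zcchc8 difference was -1.87 to -1.21 across settings, and HET against WT gave 0 calls in each. The H2-K1 and H2-K2 member turned to -0.16 with a common median. The Robo1 member lost its call after quantile normalization, and that of Gpam was lower after quantile normalization (adjusted p = 0.0216).

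Whether the replicate numbers pair the libraries was not settled. Correlations of same-numbered deviations from the group means ranged from -0.237 to 0.208 over 13345 loci. No correlations of differently numbered libraries were set beside them. With the replicate number as a block, 202 members were higher and 2 lower in KO against WT, 183 higher and 1 lower in KO against HET, and 172 pairs gained and 13 lost. Under that block the Nkx6-1 member was called (adjusted p = 0.0439), as it was in the authors' matrix (adjusted p = 0.00104).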
